A study of Homo sapiens with 6 samples.

Results

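The ZNF zinc finger genes examined here were chosen by name and by brightness on arrays of Hs578T cells. A gene entered when its symbol in the array's annotation was ZNF followed by a number and at most 1 letter, when the brightest of its probe sets was taken to stand for it, and when that probe set averaged at least 3.5 on the log2 scale over all 6 arrays. Of 14884 genes with a symbol, 471 had such a name, and 101 of them (21.4%) reached the threshold and are called the expressed ZNF genes below. The mean over both groups chose them, so their brightness is a description and no result. The 370 others are ZNF genes under the threshold, and a mean under it does not show that a transcript was absent.

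Hs578T, an established human line, comes from a breast tumour of mesenchymal type that lacks the oestrogen receptor. Its culture medium was DMEM supplemented with 10% serum and insulin at 0.01 mg/ml. All cells were transfected by Lipofectamine with either a non-targeting siRNA (siControl) or an siRNA against CSRP2 (siCSRP2), a LIM domain protein of the actin cytoskeleton. They were replated after 24 h, and RNA was taken 48 h later and hybridised to Affymetrix HuGene 2.0 arrays, 3 per group. Both groups had been through transfection, and there was no untransfected group; whether the 3 arrays of a group came from separate cultures is not stated, so a p-value here covers the spread among arrays alone, and that spread may be technical.

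Most ZNF genes encode C2H2 proteins, in which each finger folds around a zinc ion held by a pair of cysteines and a pair of histidines and reads a few bases of DNA. A large share of them also carry a KRAB domain, which binds the corepressor TRIM28. TRIM28 in turn brings in histone methyltransferases and HP1 proteins, and the bound chromatin, often at transposable elements, is silenced. Many of these genes arose by tandem duplication and still lie side by side in clusters. Other ZNF proteins work as activators, bind RNA or act in ribosome control, so the name marks a family of structure and not of function.

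The arrays did not check the labels through the target. On siControl arrays CSRP2 averaged 4.02 ± 0.33 and on siCSRP2 ones 3.76 ± 0.51 (SD, n = 3). Its change of -0.26 on the log2 scale missed the threshold (SE 0.26, limma adjusted p = 0.583; exact permutation test, two-sided, p = 0.5, where 0.1 is the smallest that 3 against 3 arrays allow). In the following, siCSRP2 therefore means the arrays labelled so. siControl 3 stood apart from the other controls, correlating across genes with the siCSRP2 arrays (mean r = 0.966) as highly as with siControl 1 and siControl 2 (mean r = 0.967), and the counts from the unpaired fit are given with and without it. The fit with pairs was not rerun without it. Of the markers of a mesenchymal breast line, 6 of 7 measured averaged at least 3.5, vimentin (VIM) among them at 8.04 ± 0.11 in siControl and 7.22 ± 0.23 in siCSRP2 (SD, n = 3). Of 9 measured epithelial and luminal markers, 2 did (GATA3 and CLDN3), while ESR1, the oestrogen receptor, read 2.57 ± 0.08 and 2.76 ± 0.20 (SD, n = 3). Of the mesenchymal markers 4 fell, and all 7 were lower in siCSRP2 (median -0.59). Genes with a mean of at least 3.5 were mostly lower too, with a median of -0.20, and 15.7% of them fell. Of the 9 epithelial and luminal markers 8 were higher (median 0.13), and 0 passed limma's test (1 at an unadjusted p under 0.05). Most of these 9 were under that mean, and all genes together had a median of 0.02. The marker lists thus differ in brightness as well as in cell type, and whether their values go beyond brightness was not tested. Their part in the ZNF values was not tested either.

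The promoters of 6 ZNF genes that passed the test are shown first, because they let a reader see what letters these genes carry near their starts. They are the 3 falls whose call held under most alternatives (ZNF614, ZNF638 and ZNF35), the largest fall (ZNF12) and both rises, picked with these values known. The window runs from 250 bases before to 50 bases after the start in RefSeq (GRCh38.p14), written 5′ to 3′ on the gene's strand, and capitals mark matches on either strand to CCGGAAG (the core of ETS family sites), ACTACAA (part of the ZNF143 motif) or AAGATGGC (YY1). The first 4 genes were lower and the last pair higher in siCSRP2.
ZNF614 (chr19:52028330-52028629, minus strand): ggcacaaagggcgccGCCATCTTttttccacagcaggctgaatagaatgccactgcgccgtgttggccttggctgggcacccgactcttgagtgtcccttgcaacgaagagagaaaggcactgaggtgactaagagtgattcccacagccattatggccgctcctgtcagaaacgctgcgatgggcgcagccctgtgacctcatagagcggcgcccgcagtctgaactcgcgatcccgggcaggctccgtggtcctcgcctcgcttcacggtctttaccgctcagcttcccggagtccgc
ZNF638 (chr2:71331532-71331831, plus strand): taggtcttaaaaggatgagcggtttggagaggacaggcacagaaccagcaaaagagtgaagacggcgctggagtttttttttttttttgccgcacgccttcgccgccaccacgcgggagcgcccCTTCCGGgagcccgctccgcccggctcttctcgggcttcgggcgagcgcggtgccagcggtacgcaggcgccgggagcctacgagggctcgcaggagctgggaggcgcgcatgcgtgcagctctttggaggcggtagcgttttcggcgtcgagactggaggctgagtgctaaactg
ZNF35 (chr3:44648482-44648781, plus strand): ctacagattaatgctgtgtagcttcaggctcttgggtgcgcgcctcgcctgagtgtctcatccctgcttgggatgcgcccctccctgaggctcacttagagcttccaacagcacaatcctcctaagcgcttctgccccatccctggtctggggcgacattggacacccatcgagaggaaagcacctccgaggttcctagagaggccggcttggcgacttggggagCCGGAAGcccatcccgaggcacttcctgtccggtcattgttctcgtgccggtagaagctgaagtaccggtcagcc
ZNF12 (chr7:6706898-6707197, minus strand): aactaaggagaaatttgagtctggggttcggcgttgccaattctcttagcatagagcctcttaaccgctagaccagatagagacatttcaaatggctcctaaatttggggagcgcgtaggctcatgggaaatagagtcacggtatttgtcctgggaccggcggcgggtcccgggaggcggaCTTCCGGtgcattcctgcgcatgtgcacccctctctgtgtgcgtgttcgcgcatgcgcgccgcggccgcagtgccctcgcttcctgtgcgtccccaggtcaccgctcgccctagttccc
ZNF697 (chr1:119648217-119648516, minus strand): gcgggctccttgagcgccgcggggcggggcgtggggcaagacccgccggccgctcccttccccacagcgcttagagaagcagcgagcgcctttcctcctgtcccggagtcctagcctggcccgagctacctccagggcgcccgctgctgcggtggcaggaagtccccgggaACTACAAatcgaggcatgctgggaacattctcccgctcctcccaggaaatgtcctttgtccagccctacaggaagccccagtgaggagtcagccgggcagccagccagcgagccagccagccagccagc
ZNF281 (chr1:200409987-200410286, minus strand): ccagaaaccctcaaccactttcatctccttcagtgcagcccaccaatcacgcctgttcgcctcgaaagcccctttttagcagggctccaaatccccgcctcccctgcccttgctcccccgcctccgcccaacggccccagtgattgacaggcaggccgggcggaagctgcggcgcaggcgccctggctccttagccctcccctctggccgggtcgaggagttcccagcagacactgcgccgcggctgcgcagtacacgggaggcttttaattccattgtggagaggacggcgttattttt

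A promoter of that length was at hand for 88 of the 101 expressed ZNF genes. CCGGAAG was present in 38 of them (43.2%), against 21.3% of 4047 promoters of other genes with a mean of at least 3.5 and 10.7% of all 27305 promoters. ACTACAA was in 10 of 88 (11.4%), against 3.73% and 2.95%. AAGATGGC was in 6.82% of the ZNF promoters, 6.75% of the other genes with a mean of at least 3.5 and 3.03% of all promoters, and the SP site GGGCGG in 76.1%, 72.6% and 44.6%. None of these strings is part of another, and the share of all promoters includes genes under that mean. Among the 8 ZNF genes that fell and had a promoter in the table, CCGGAAG was in 3 (ZNF638, ZNF35 and ZNF12), and in neither of the 2 that rose. Of the falls not printed, ZNF358 held ACTACAA, and ZNF512, ZNF346 and ZNF322 held none of the 3 marked strings. The match of letters is a description and shows no binding, and with so few changed genes the motif shares of fallen and risen genes were not compared.

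Which ZNF transcripts differed in cells given the RNA against CSRP2 was asked by setting siCSRP2 against siControl arrays. Among the 101 expressed ZNF genes, 9 fell and 2 rose (limma over all 14884 genes, adjusted p under 0.05, two-sided), and 90 did not pass. The falls were ZNF12, ZNF614, ZNF512, ZNF322, ZNF346, ZNF638, ZNF35, ZNF358 and ZNF395, all between 1.41-fold and 1.89-fold, and the rises were ZNF697 (1.76-fold) and ZNF281 (1.47-fold). None of the 101 changed by 2-fold or more. The share that passed, 10.9%, is to be read against a background of 7.34% of all genes and 17.6% of the 5131 genes with the same minimum mean. By direction, 8.91% of the expressed ZNF genes fell, against 15.7% of genes with that mean and 6.54% of all genes, and 1.98% rose, against 1.83% and 0.8%. Neither share was tested against its background.

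The count rested on single arrays and on the scaling. Without siControl 2, 0 of the 101 passed limma's test (19 at an unadjusted p under 0.05), without siControl 1 or siCSRP2 2 only ZNF614 did, and without siCSRP2 3 only ZNF614, ZNF638 and ZNF35 did. Without siCSRP2 1, 7 fell and 3 rose, with ZNF12, ZNF614, ZNF346, ZNF638, ZNF35 and ZNF697 kept of the 11. Without siControl 3, 20 fell (19.8%) and 7 rose (6.93%), all 11 included, against 30.7% and 6.78% of genes with a mean of at least 3.5. After quantile normalization 3 fell and 4 rose, in place of 9 and 2: ZNF614, ZNF638 and ZNF35 stayed lower, ZNF697 and ZNF281 stayed higher, and ZNF460 and ZNF770 joined them.

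Of the KRAB zinc finger genes, ZNF614 had the smallest adjusted p of all expressed ZNF genes. Its probe set (16874997) read 3.98, 4.17 and 4.26 on siControl 1 to 3 and 3.14, 3.34 and 3.25 on siCSRP2 1 to 3. All siCSRP2 arrays lay below all siControl arrays, and siControl 3 was here the highest control. The log2 difference was -0.89 (SE 0.12, 95% interval -1.16 to -0.62, 1.85-fold, adjusted p = 0.00824), and it passed in 5 of the 6 fits that left out 1 array.

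ZNF12, another KRAB zinc finger protein, showed the largest fall. It read 5.08, 5.02 and 4.33 on siControl and 4.23, 3.70 and 3.75 on siCSRP2 arrays. The groups did not overlap, but siControl 3 and siCSRP2 1 lay close together. It differed by -0.92 on the log2 scale (SE 0.22, 95% interval -1.42 to -0.42, 1.89-fold, adjusted p = 0.0436), and it passed in 2 of the 6 fits that left out 1 array.

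ZNF638 and ZNF346, both nuclear proteins that bind nucleic acid, fell too. ZNF638, which takes part in silencing unintegrated retroviral DNA with the HUSH complex, read 4.87, 4.91 and 4.89 on siControl and 4.09, 4.28 and 4.35 on siCSRP2 arrays. Its controls were nearly equal, and no array of one group came within the range of the other. On the log2 scale the change was -0.65 (SE 0.11, 1.57-fold, adjusted p = 0.0144), passing in 3 of 6 fits with 1 array left out. ZNF346, a protein that binds double-stranded RNA, read 4.11, 4.44 and 3.84 on siControl and 3.68, 3.35 and 3.32 on siCSRP2 arrays. siControl 3 was the lowest control and siCSRP2 1 the highest of its group, without overlap. This gave a log2 difference of -0.68 (SE 0.17, 1.6-fold, adjusted p = 0.0499), at the edge of the threshold. ZNF346 passed in 2 of 6 fits with 1 array left out.

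ZNF35 and ZNF512 fell as well. ZNF35 read 3.89, 4.03 and 3.92 on siControl and 3.24, 3.38 and 3.40 on siCSRP2 arrays. Both groups were tight, with SDs of 0.07 and 0.09 and no overlap. The groups differed by -0.61 on the log2 scale (SE 0.11, 1.52-fold, adjusted p = 0.0161), and it passed in 3 of 6 fits with 1 array left out. ZNF512 read 4.83, 4.65 and 4.09 on siControl and 3.60, 3.47 and 3.88 on siCSRP2 arrays. siControl 3 was again the lowest control, and siCSRP2 3 was the siCSRP2 array nearest to it. The log2 difference was -0.87 (SE 0.20, 1.83-fold, adjusted p = 0.035). ZNF512 passed in 1 of 6 fits with 1 array left out, the one without siControl 3.

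ZNF322, ZNF358 and ZNF395 completed the falls. ZNF322 read 4.08, 3.91 and 3.62 on siControl and 3.15, 3.45 and 2.94 on siCSRP2 arrays, and the log2 difference was -0.69 (SE 0.17, 1.61-fold, adjusted p = 0.0427). Its other probe set differed by -0.24, and the mean of both gave -0.46, which did not pass. ZNF358, whose probe set was the brightest of the 101, read 6.69, 6.59 and 6.26 on siControl and 5.95, 6.06 and 5.95 on siCSRP2 arrays, with a log2 difference of -0.53 (SE 0.13, 1.44-fold, adjusted p = 0.0495). The siCSRP2 arrays were nearly equal there, and siControl 3 was the control nearest to them. ZNF395, a factor induced by hypoxia, read 3.88, 4.02 and 3.95 on siControl and 3.53, 3.54 and 3.30 on siCSRP2 arrays, a log2 difference of -0.50 (SE 0.11, 1.41-fold, adjusted p = 0.0368). Each of these 3 genes passed in 1 of the 6 fits that left out 1 array, the one without siControl 3.

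The 2 rises were in ZNF697 and ZNF281. ZNF697 read 2.95, 3.24 and 3.55 on siControl and 3.87, 4.23 and 4.07 on siCSRP2 arrays. siControl 3 was the highest control and every siCSRP2 array lay above it. The log2 difference was 0.81 (SE 0.17, 95% interval 0.43 to 1.19, 1.76-fold, adjusted p = 0.0263), and it passed in 2 of 6 fits with 1 array left out. ZNF697 averaged under 3.5 on siControl arrays and reached the threshold through siCSRP2. ZNF281, a regulator linked to the epithelial to mesenchymal transition and to stem cell state, read 4.62, 4.84 and 5.09 on siControl and 5.37, 5.33 and 5.51 on siCSRP2 arrays. As in ZNF697, siControl 3 was the highest control and lay below every siCSRP2 array. For ZNF281 the gain in siCSRP2 came to 0.55 log2 units (SE 0.14, 95% interval 0.24 to 0.87, 1.47-fold, adjusted p = 0.0469), passing in 1 of 6 such fits.

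**Figure D1:**
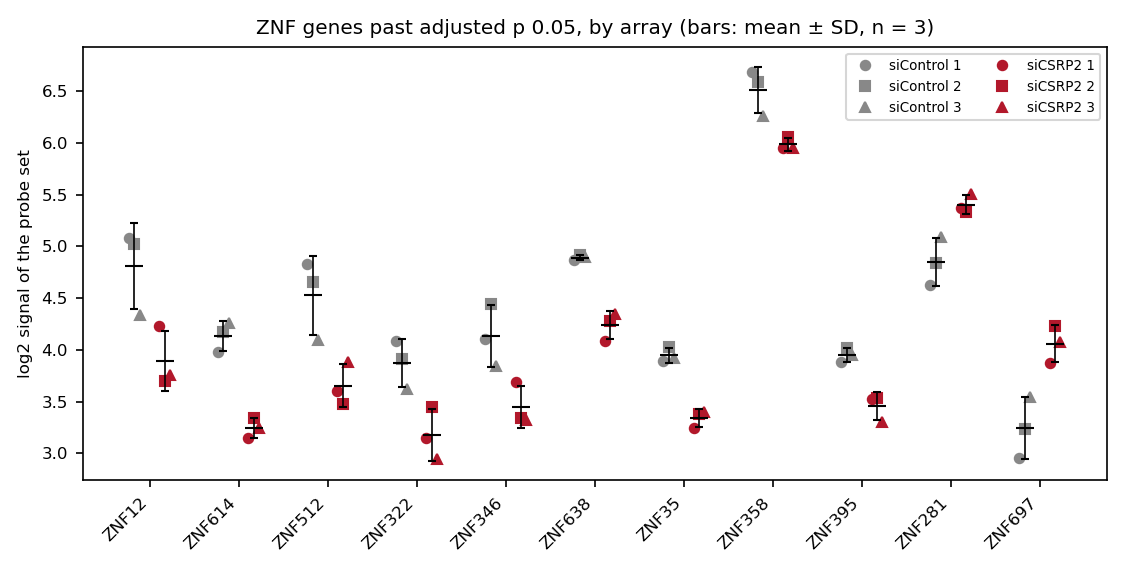
Log2 signal of the 11 expressed ZNF genes past adjusted p 0.05 (x axis) on each array (y axis); grey symbols are siControl and red ones siCSRP2, circles, squares and triangles are replicates 1, 2 and 3, and bars give the mean ± SD (n = 3). The groups do not overlap in any of the 11, and siControl 3 is the lowest control in 5 of the 9 falls and the highest in both rises.

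siControl 3 lay on the siCSRP2 side of the other controls in several of these genes. It was the lowest control in 5 of the 9 genes that fell and the highest in both that rose. Over all 101 genes it was the lowest in 47 and the highest in 35. A lowest place of siControl 3 was thus common among the 101 genes and not particular to those that fell. With so few changed genes, these shares were not tested against each other. As the mean threshold was set over both groups, 81 of the 101 genes averaged at least 3.5 in each group, 7 averaged less on siControl and 13 less on siCSRP2 arrays. Of those 13, 5 were among the falls (ZNF614, ZNF322, ZNF346, ZNF35 and ZNF395), and of the 7, ZNF697 was among the rises. At the threshold itself, ZNF627 (mean 3.513), ZNF844 (3.512) and ZNF417 (3.502) were the last genes kept, with log2 differences of -0.15, 0.08 and 0.22, and ZNF229 (3.497), ZNF623 (3.489) and ZNF699 (3.487) the first left out, with -0.47, -0.34 and -0.11.

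In a fit that compares same-numbered arrays, through a block for the replicate number, 17 expressed ZNF genes fell and 5 rose, the 11 above included. The background in that fit was 13.1% falls and 2.67% rises over all genes and 29.5% and 5.79% over genes with a mean of at least 3.5, against 16.8% and 4.95% of the expressed ZNF genes. The 17 falls were lower in 3 of 3 pairs and the 5 rises higher in 3 of 3 pairs. The 8 added falls were ZNF134, ZNF326, ZNF330, ZNF426, ZNF652, ZNF766, ZNF791 and ZNF827, and the 3 added rises were ZNF335, ZNF460 and ZNF770.

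ZNF766 and ZNF134 had the largest differences among the added genes. ZNF766 read 5.13, 4.81 and 4.24 on siControl and 4.37, 3.63 and 3.53 on siCSRP2 arrays, so siCSRP2 1 lay above siControl 3. The log2 difference was -0.88 (adjusted p = 0.0858, and 0.00415 with the block). ZNF134 read 6.13, 5.75 and 5.53 on siControl and 5.58, 4.72 and 4.78 on siCSRP2 arrays, with the same overlap of siCSRP2 1 and siControl 3 (log2 difference -0.78, adjusted p = 0.0924, and 0.00622 with the block). In both genes array 1 was the highest of its group in siControl and in siCSRP2.

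Among the other added falls were genes with known roles. ZNF326, a subunit of the DBIRD complex that couples transcription to splicing, read 5.10, 4.88 and 4.41 on siControl and 4.39, 4.25 and 4.04 on siCSRP2 arrays (log2 difference -0.57, adjusted p = 0.097, and 0.0145 with the block). ZNF827, which brings the NuRD complex to telomeres, differed by -0.52 (adjusted p = 0.0722, and 0.0213 with the block). ZNF652, a DNA-binding partner of the corepressor CBFA2T3, differed by -0.55 (0.118 and 0.0154), and the nucleolar protein ZNF330 by -0.52 (0.124 and 0.0381). ZNF791 differed by -0.55 (0.121 and 0.0134) and ZNF426 by -0.42 (0.0668 and 0.0429).

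The added rises were of like size. ZNF460 read 4.90, 4.72 and 5.09 on siControl and 5.46, 5.29 and 5.85 on siCSRP2 arrays, without overlap (log2 difference 0.63, adjusted p = 0.0576, and 0.00796 with the block). ZNF770 differed by 0.53 (0.059 and 0.0263) on the probe set that stood for it, while its dimmer probe set, with a mean of 2.59, differed by -0.05. ZNF335, a component of histone H3K4 methyltransferase complexes, differed by 0.52 (0.0836 and 0.0235).

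**Figure D2:**
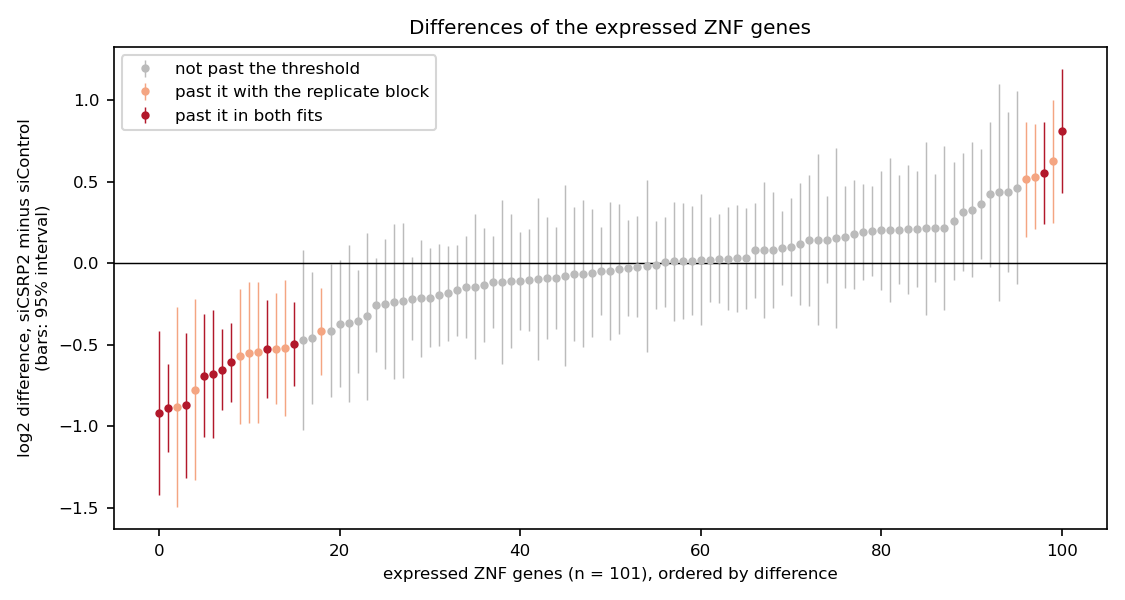
Log2 difference (siCSRP2 minus siControl, y axis) of each of the 101 expressed ZNF genes in order of size (x axis), with the 95% interval of the fit without the block; red genes passed adjusted p 0.05 in both fits, orange ones with the replicate block only. The values run from -0.92 (ZNF12) to 0.81 (ZNF697).

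Most expressed ZNF genes lay near 0. The differences ran from -0.92 to 0.81 with a median of -0.04, 56 were negative and 45 positive, and 63 were under 0.25 in size. For 84 of the 90 genes that did not pass, the 95% interval lay within 1 log2 unit of 0, so a change of 2-fold in the signal of those probe sets was outside it. The median interval reached 0.36 to either side, without adjustment for the number of genes. The adjusted threshold asked for more. The smallest difference that passed it was -0.50 (ZNF395), while 0.53 (ZNF770) and -0.88 (ZNF766) did not. With 3 arrays a group, changes well above 0.36 could thus be missed. Groups did not overlap in 16 genes that were lower (15.8%) and 8 that were higher (7.92%), against 31.6% and 7.15% of genes with a mean of at least 3.5. Without siControl 3, which leaves 2 controls, these were 33 lower (32.7%) and 17 higher (16.8%), against 48.1% and 14.8%.

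Genes with the same minimum mean were lower on the whole than the ZNF genes. Their median difference was -0.20, against -0.04 for the expressed ZNF genes and 0.02 for all genes. The 1419 other genes with means from 3.5 to under 4 had a median of -0.24 against -0.09 for 55 ZNF genes in that range, and the 1846 other genes from 4 to under 5 had -0.26 against -0.02 for 32 ZNF genes. The levels of these medians followed the scaling. After quantile normalization they were 0.09 for the expressed ZNF genes and -0.07 for genes with that mean, after cyclic loess 0.09 and -0.08, and with each array centred on its median -0.13 and -0.29. The direction of the ZNF median thus flipped with the scaling, while it lay above that of genes with the same minimum mean in each of these settings. Whether this distance is particular to ZNF genes was not tested.

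**Figure D3:**
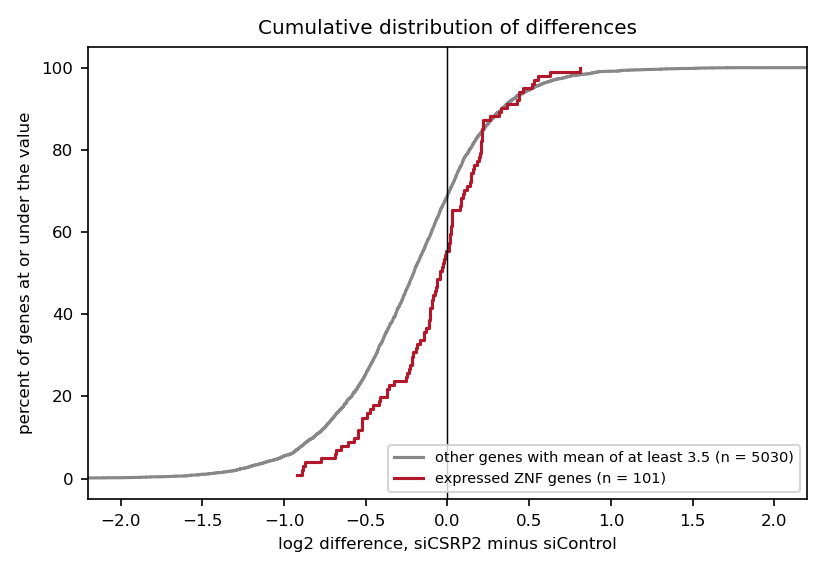
Percent of genes (y axis) with a log2 difference, siCSRP2 minus siControl, at or under the value on the x axis, for the 101 expressed ZNF genes (red) and the 5030 other genes with a mean of at least 3.5 (grey), with the x axis cut at -2.2 and 2.2. The ZNF curve is steeper, starts at -0.92, and has its median at -0.04 against -0.21 for the other genes.

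On single arrays the expressed ZNF genes shifted little. Relative to the siControl mean of each gene, their median was 0, 0.03 and -0.04 on siControl 1 to 3 and -0.05, -0.06 and -0.05 on siCSRP2 1 to 3. The 3 siCSRP2 arrays were alike and siControl 3 lay next to them. The 5030 other genes with a mean of at least 3.5 had medians of 0.03, 0.06 and -0.08 on siControl and -0.21, -0.18 and -0.24 on siCSRP2 arrays, which sets siControl 3 between the other controls and siCSRP2. The 17 ZNF genes lower with the block had medians of 0.17, 0.08 and -0.27 on siControl and -0.49, -0.57 and -0.755 on siCSRP2 arrays. These 17 were picked for that difference, so their order of arrays is a description.

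**Figure D4:**
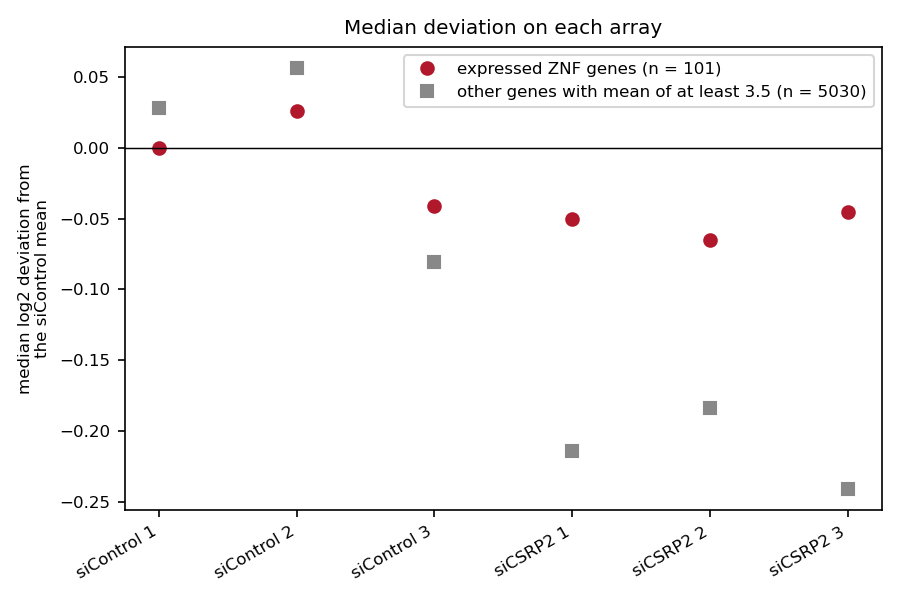
Median log2 deviation from each gene's siControl mean (y axis) on the 6 arrays (x axis) for the 101 expressed ZNF genes (red circles) and 5030 other genes with a mean of at least 3.5 (grey squares). The ZNF medians stay between -0.06 and 0.03, and the other genes reach -0.24 on siCSRP2 3.

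Of 22 expressed ZNF genes on a list with textbook roles, 2 fell (ZNF346 and ZNF638), 1 rose (ZNF281) and 19 did not pass. That is 13.6% of the list, against 17.6% of genes with a mean of at least 3.5. With the block 4 fell and 2 rose, as ZNF326, ZNF827 and ZNF335 joined them. Of genes with a mean of at least 3.5, 29.5% fell and 5.79% rose in that fit. Without siControl 3, 5 of the list fell (22.7%) and 2 rose (9.09%), against 30.7% and 6.78% of genes with that mean. ZNF217, amplified in many breast cancers, read 4.85, 4.91 and 4.96 on siControl and 5.20, 5.07 and 4.89 on siCSRP2 arrays. The groups overlapped, and the difference was 0.15 (95% interval -0.12 to 0.41, adjusted p = 0.492). ZNF703 and its relative ZNF503, NET family corepressors, differed by 0.02 (adjusted p = 0.961) and 0.03 (0.92).

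The activators, a repressor and a spindle factor on that list did not pass either. ZNF143, an activator of small nuclear RNA and many protein-coding genes, differed by 0.26 (SE 0.16, adjusted p = 0.367), and siControl 3 (4.79) lay among the siCSRP2 arrays (4.57 to 4.88). ZNF148, which binds GC-rich promoters, differed by -0.21 (0.375), and ZNF24, a repressor of VEGF transcription, by -0.13 (0.644). ZNF207, which loads the kinetochore protein BUB3 at mitosis, read 6.07 ± 0.13 and 6.10 ± 0.35 (SD, n = 3; difference 0.02, adjusted p = 0.952).

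The partners of chromatin regulators and further genes on the list gave mixed values. ZNF532 and ZNF592, which form complexes with ZMYND8, differed by -0.37 (adjusted p = 0.333) and 0.21 (0.458), and ZNF644, a partner of the G9a and GLP methyltransferases, by 0.08 (0.75). Of the further genes, ZNF292 differed by 0.42 (0.234), ZNF131 by -0.18 (0.428) and ZNF277 by -0.02 (0.942). Of the genes acting in protein turnover and ribosomes, ZNF598, the ubiquitin ligase of collided ribosomes, differed by -0.09 (0.771), ZNF622, a factor of large ribosomal subunit maturation, by 0.16 (0.511), and the SUMO ligase ZNF451 by 0.03 (0.91). The other brightest probe sets after ZNF358 and ZNF207 were those of ZNF121 (difference -0.04, adjusted p = 0.921), ZNF841 (0.46, 0.323) and ZNF800 (0.18, 0.505); brightness describes the probe set and does not rank transcripts.

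Gene order was taken from RefSeq protein-coding genes, which held 99 of the 101 (ZNF271P and ZNF767P are transcribed pseudogenes). There, 35 expressed ZNF genes lay in runs of at least 5 neighbouring zinc finger genes, 10 in runs of 2 to 4, and 54 had no zinc finger gene on either side. In the long runs 2 fell, with a median difference of -0.09 over the 35 genes, and 6 fell with the block. Among the 54 lone genes 6 fell and 2 rose, with a median of 0.01, and 10 fell and 4 rose with the block. The 10 genes in short runs had 1 fall and a median of -0.10, and 1 fall and 1 rise with the block. Of genes with a mean of at least 3.5, 15.7% fell and 1.83% rose, and with the block 29.5% and 5.79%. Without siControl 3, 7 fell and 1 rose in long runs, 1 fell and 2 rose in short runs, and 12 fell and 4 rose among lone genes. In that fit 30.7% of genes with a mean of at least 3.5 fell and 6.78% rose. The difference between long runs, short runs and lone genes was not tested.

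The sign of the difference was mixed in some runs and shared in others. In neither fit did a run hold both a gene that passed as lower and one that passed as higher. ZNF614 and ZNF841 lie in a single run of 10 zinc finger genes and differed by -0.89 and 0.46, the latter with values of 5.29, 5.02 and 6.01 on siControl and 5.62, 5.81 and 6.29 on siCSRP2 arrays (adjusted p = 0.323, and 0.0504 with the block). ZNF766 and ZNF808, in another run of 10, differed by -0.88 and -0.46. In the run from ZNF627 to ZNF791, with 24 genes, 4 were expressed and their differences ran from -0.55 (ZNF791) to 0.08 (ZNF844). ZNF805 and ZNF460 share a run of 4 and differed by 0.10 and 0.63. These pairs were chosen after their values were seen. Related zinc finger genes have similar sequences, 97 of the 101 genes rested on 1 probe set each, and whether a probe set also read a related transcript was not tested.

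Among the 370 ZNF genes under the threshold, 4 fell and 0 rose in limma (6 higher at an unadjusted p under 0.05), and 16 fell and 2 rose with the block. The share past the threshold was 1.08%, against 7.34% of all genes. With the block 13.1% of all genes fell and 2.67% rose. These all-gene shares come largely from brighter genes. Of the 1093 genes that passed over all genes, 902 had a mean of at least 3.5, and with the block 1513 of the 1950 falls did. Without siControl 3, 20 of the 370 fell (5.41%) and 1 rose (0.27%), against 14.7% and 2.87% of all genes. In that fit 1576 of the 2193 falls over all genes had a mean of at least 3.5. How the 370 compare with equally dim genes was not tested. The 4 falls without the block, on all 6 arrays, were ZNF362 (3.60 ± 0.25 to 2.82 ± 0.26, SD, n = 3, log2 difference -0.78), ZNF3 (-0.66), ZNF740 (-0.57) and ZNF174 (-0.56). Each had a siControl mean just above 3.5. The median difference over the 370 genes was -0.00041.

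The machinery that KRAB zinc finger proteins use was measured through 25 of 30 listed genes. The histone methyltransferase SETDB1 was not among the 25. Of these 25, 4 fell, 0 rose in limma (1 higher at an unadjusted p under 0.05) and 21 did not pass. The share that passed was 16% of the 25, dim genes included. Of the 25, 17 averaged at least 3.5, and all 4 falls were among these. Of genes with that mean 17.6% passed, and of all genes 7.34%. TRIM28, the corepressor bound by KRAB domains, read 5.84 ± 0.15 and 5.80 ± 0.39 (SD, n = 3), a log2 difference of -0.04 (SE 0.19, adjusted p = 0.914). The NuRD remodellers CHD4 and CHD3 fell by 0.97 and 0.86 on the log2 scale (adjusted p = 0.016 and 0.0268), the maintenance DNA methyltransferase DNMT1 fell by 0.78 (0.0237), and CBX3, an HP1 protein, fell by 0.72 (0.0168). With the block HDAC1 was added (-0.48, adjusted p = 0.0254). The list's median was -0.14. Its calls also rested on single arrays: at most 2 passed without siControl 1, siControl 2, siCSRP2 2 or siCSRP2 3, and 9 without siControl 3. Those 9 are 36% of the 25, dim genes included. In that fit 37.5% of genes with a mean of at least 3.5 and 17.6% of all genes passed. The share of the 17 brighter listed genes in that fit was not computed, so neither background is like for like.

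Other zinc finger families were given by 82 genes named ZBTB, ZSCAN, ZKSCAN or ZFP, of which 22 averaged at least 3.5. None of the 22 passed limma's test (7 at an unadjusted p under 0.05, 4 higher and 3 lower), and their median difference was -0.01. With the block 4 rose and 2 fell: ZBTB10 (0.92, adjusted p = 0.00241), ZBTB43 (0.65), ZBTB34 (0.53) and ZBTB11 (0.52) rose, and ZFP90 (-0.88) and ZBTB4 (-0.55) fell. In that fit 5.79% of genes with a mean of at least 3.5 rose and 29.5% fell. Without siControl 3, 4 of the 22 rose (18.2%) and 3 fell (13.6%), against 6.78% and 30.7% of genes with that mean. These genes were chosen for passing with the block, after their values were seen. Under the threshold, ZBTB7C fell without the block (log2 difference -0.65, adjusted p = 0.043).

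**Figure D5:**
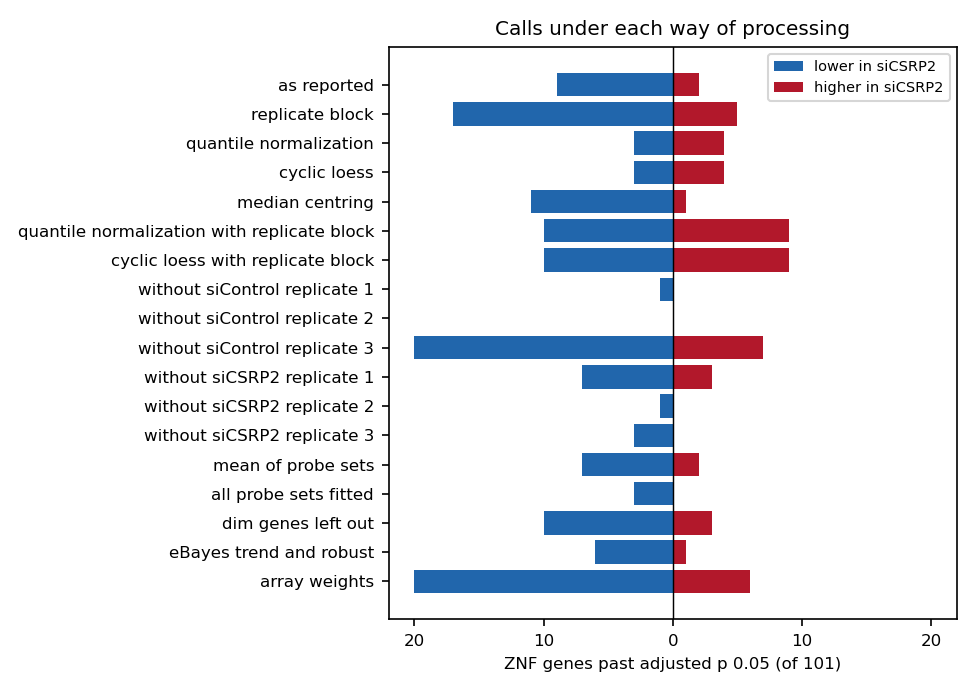
Number of the 101 expressed ZNF genes past adjusted p 0.05 (x axis, falls in blue to the left, rises in red to the right) under each way of processing (y axis). The falls run from 0 without siControl replicate 2 to 20 without siControl replicate 3 or with array weights, and the rises from 0 to 9.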

How the data were processed

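Expression values deposited by the authors (1 per array and probe set) span 1.26 to 13.4 and were read as log2; no source names the base. The submitters' processing notes list Partek with neither role nor version. The sources used here give neither the normalization of background and arrays nor the genome build. The values were used as deposited, without detection calls or further scaling.

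Of 53617 probe sets, 16098 had 1 gene symbol in the platform's annotation, 0 had several and 37519 had none, and stay unnamed. The gene identifiers of all 14884 genes matched RefSeq (GRCh38.p14), used for names, biotypes, gene order and promoters. siCSRP2 was compared with siControl by limma 3.58.1 in R 4.3.3 (lmFit, eBayes, group as the only term, 6 arrays), with Benjamini-Hochberg adjustment over all 14884 genes. The number of arrays limits the precision. The code was tested on simulated data.

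The ZNF genes, lists and tests were chosen with earlier results of these data known. Named were CSRP2; every expressed ZNF gene past the threshold; the 5 brightest; 3 on each side of the mean threshold; those on the role list; corepressor genes past the threshold, with TRIM28; and genes of other zinc finger families past it. Genes added by the block, and neighbours, are outside it, picked with their values in view. A planned grouping by protein domain was not run, as no protein sequences were used here.

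Replicate numbers are shared by the groups. Deviations from the group means correlated at 0.305, 0.187 and 0.321 between same-numbered arrays and at -0.256 to 0.052 between others; each same-numbered pair was over 0.1, so the numbers meet the rule for pairs, on the strength of these data alone. The reported fit is unpaired; the fit with the number as a block is given beside it where it changes a call or count. No pair of arrays shared more than 2 identical values.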

Additional observations from a re-analysis of the deposited data

How the results depend on the processing

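The counts and medians depended on the scaling, on single arrays and on the block. Of the 187 values of the 11 called ZNF genes under 17 alternatives, 112 kept the call, 75 lost it and 0 changed sign; ZNF614 passed in 16, ZNF638 and ZNF35 in 14 each. Precision is limited by 3 arrays a group.

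With the replicate block 17 ZNF genes fell and 5 rose (all genes: 1950 and 398), and 6 of the other zinc finger families passed. Quantile normalization and cyclic loess each gave 3 falls and 4 rises, and 10 and 9 with the block; the ZNF medians were 0.095 and 0.088, those of genes with a mean of at least 3.5 were -0.072 and -0.080, and those of the other families 0.12 and 0.117, with or without the block. Over all genes 210 and 197 rose under these scalings, and with the block 524 and 531 rose and 1486 and 1517 fell. Other families had 1 call under either scaling, 8 with the block added, and 2 with dim genes left out. After median centring 1 ZNF gene rose, 1471 of all genes fell, and the medians were -0.13 (ZNF genes), -0.29 (genes with a mean of at least 3.5) and -0.23 (corepressor genes). Array weights gave 20 falls and 6 rises (all genes: 2327 and 597; corepressor genes 11; other families 6), the fit of all probe sets 3 and 0 (all genes: 245 and 16; corepressor genes 0), and trend and robust fitting 1 rise. At a mean threshold of 4, 4 fell and 1 rose, with a median of 0.00064. The cause of these moves was not tested.

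Leaving out 1 array gave 0 to 20 falls and 0 to 7 rises, a ZNF median of -0.081 to 0.0072, 86 to 2193 falls and 5 to 427 rises over all genes, 0 to 9 corepressor calls with medians of -0.275 to -0.12, and 0 to 7 calls in other families.

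Differences near 0 changed sign, none of them past the threshold. After quantile normalization and cyclic loess, with and without the block, these were ZNF24 (0.034 and 0.0093), ZNF277 (0.17 and 0.13), ZNF598 (0.030 and 0.036), ZNF121 (0.095 and 0.084) and TRIM28 (0.085 and 0.085). After median centring they were ZNF207 (-0.063), ZNF451 (-0.057), ZNF503 (-0.056), ZNF644 (-0.0071), ZNF703 (-0.070) and ZNF844 (-0.0026), and with array weights ZNF451 (-0.0012), ZNF121 (0.018) and TRIM28 (0.024). With 1 array left out the ranges were -0.099 to 0.225 (ZNF207), -0.12 to 0.11 (ZNF277), -0.058 to 0.096 (ZNF451), -0.079 to 0.17 (ZNF503), -0.195 to 0.066 (ZNF598), -0.026 to 0.175 (ZNF644), -0.081 to 0.17 (ZNF703), -0.20 to 0.096 (ZNF121), -0.22 to 0.16 (TRIM28), -0.089 to 0.19 (ZNF844), -0.0020 to 0.47 (ZNF417) and -0.33 to 0.0079 (ZNF699).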
